A study of Tupaia belangeri chinensis with 36 samples.

Results

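The genes described here are 25 features of the Chinese tree shrew annotation whose RNA was abundant in the inner and the outer subventricular zone (ISVZ and OSVZ) of the fetal cortex at E28 and much less abundant there at E42. They were chosen from the 21043 features that carry a TSDBGID identifier, out of 76871 annotated features. Levels are given as CPM, the count of a gene scaled to a library total of 1000000 over all features. A gene was kept when, in the ISVZ and again in the OSVZ, each E28 library was at 10 CPM or more and at least 2.5 times each E42 library of that layer. The files pair no identifier with a gene symbol, and 0 of the 76871 identifiers were found in a RefSeq table of this species, so the genes are named by identifier, what each does cannot be given, and the layer labels could not be checked against marker genes.

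RNA was sequenced from cortical layers that had been cut by laser from frozen, Nissl-stained sections of Tupaia belangeri chinensis fetuses. E28 was covered by 2 libraries for each of 6 layers, namely the ventricular zone (VZ), ISVZ, OSVZ, intermediate zone (IZ), cortical plate (CP) and marginal zone (MZ). E42 was covered in the same way, except that the CP was cut into an inner and an outer part (CPi and CPo) with 2 libraries apiece. For E37 the IZ had 3 libraries and the MZ 2, and the plate had 1 whole library, 2 CPi and 2 CPo libraries, while the germinal zones of that stage were not analysed here. The labels name no treatment and give neither strain nor sex nor the animal behind a library. In the tests, the CPi and CPo of one stage and replicate number were summed to 1 CP library.

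The subventricular zone lies above the VZ and holds basal progenitors, dividing cells that have left the ventricular surface. In species with a folded or expanded cortex it is split into an inner and an outer band, and the OSVZ is known for basal radial glia. Newborn neurons leave these zones through the IZ and settle in the CP under the MZ, and progenitors become fewer as neurogenesis ends. In dissected tissue, fewer cells of a type and less RNA per cell cannot be told apart.

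The libraries held between 17932690 and 102042743 counts. The VZ files labelled replicate 2 at the early and at the late stage were identical in every feature, so both were left out and the VZ is described from replicate 1 alone. All other replicate pairs of a group differed by more than counting error. Libraries of the IZ, CP and MZ with the same number deviated together within a stage, and also with the ISVZ and OSVZ libraries of that number (correlation 0.158 to 0.193), apart from the E42 OSVZ (-0.0878 to 0.084). The layers below may therefore share brains with the libraries that chose the genes, and p-values measure only the spread between these libraries. Each stage also comes from fetuses of its own, so age cannot be told apart from other differences between the fetuses of the stages.

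The values that chose the genes are given without a test. Over the 4 ISVZ and OSVZ libraries of E28, the mean level of a gene ran from 17.7 to 598 CPM, with a median of 83.3 CPM. At E42 the mean over the 4 libraries of these layers ran from 0.0328 to 149 CPM, with a median of 9.92 CPM. In the ISVZ a median of 13.8% of the E28 level was left at E42, and in the OSVZ a median of 13.0%. Only 3 genes fell under 1 CPM on average at E42, 10 lay from 1 to under 10 CPM, and 12 were still at 10 CPM or more, so most of these genes were reduced in the subventricular zones and not lost from them. The smallest ratios inside the rule were 2.52 for TSDBGID.24589 and 2.59 for TSDBGID.24682, and the largest outside it were 2.498 and 2.46. The lowest E28 levels inside the rule were 10.5 CPM for TSDBGID.5343 and 10.8 CPM for TSDBGID.11808, and the highest outside it were 9.93 and 7.09 CPM.

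At E28 the 25 genes did not share one distribution across the cortical wall. The layer with the highest mean was the OSVZ for 9 genes, the ISVZ for 8, the VZ for 6 and the CP for 2. Both OSVZ libraries lay above both ISVZ libraries for 9 genes and below them for 4, against 20.6% and 23.8% of all features and 29.4% and 38.7% of those at 10 CPM or more. By E42 the CP was the highest layer for 8 genes, the VZ for 7, the OSVZ for 4, the MZ for 3, the IZ for 2 and the ISVZ for 1. The rule asked for a fall in the ISVZ and OSVZ, so this shift away from them follows in part from the choice. No share over all features is given for it. The median over the 25 genes of the E28 group mean was 46.0 CPM in the IZ, 14.7 CPM in the MZ and 8.53 CPM in the CP, and at E42 it was 4.87, 5.11 and 12.9 CPM.

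**Figure D1:**
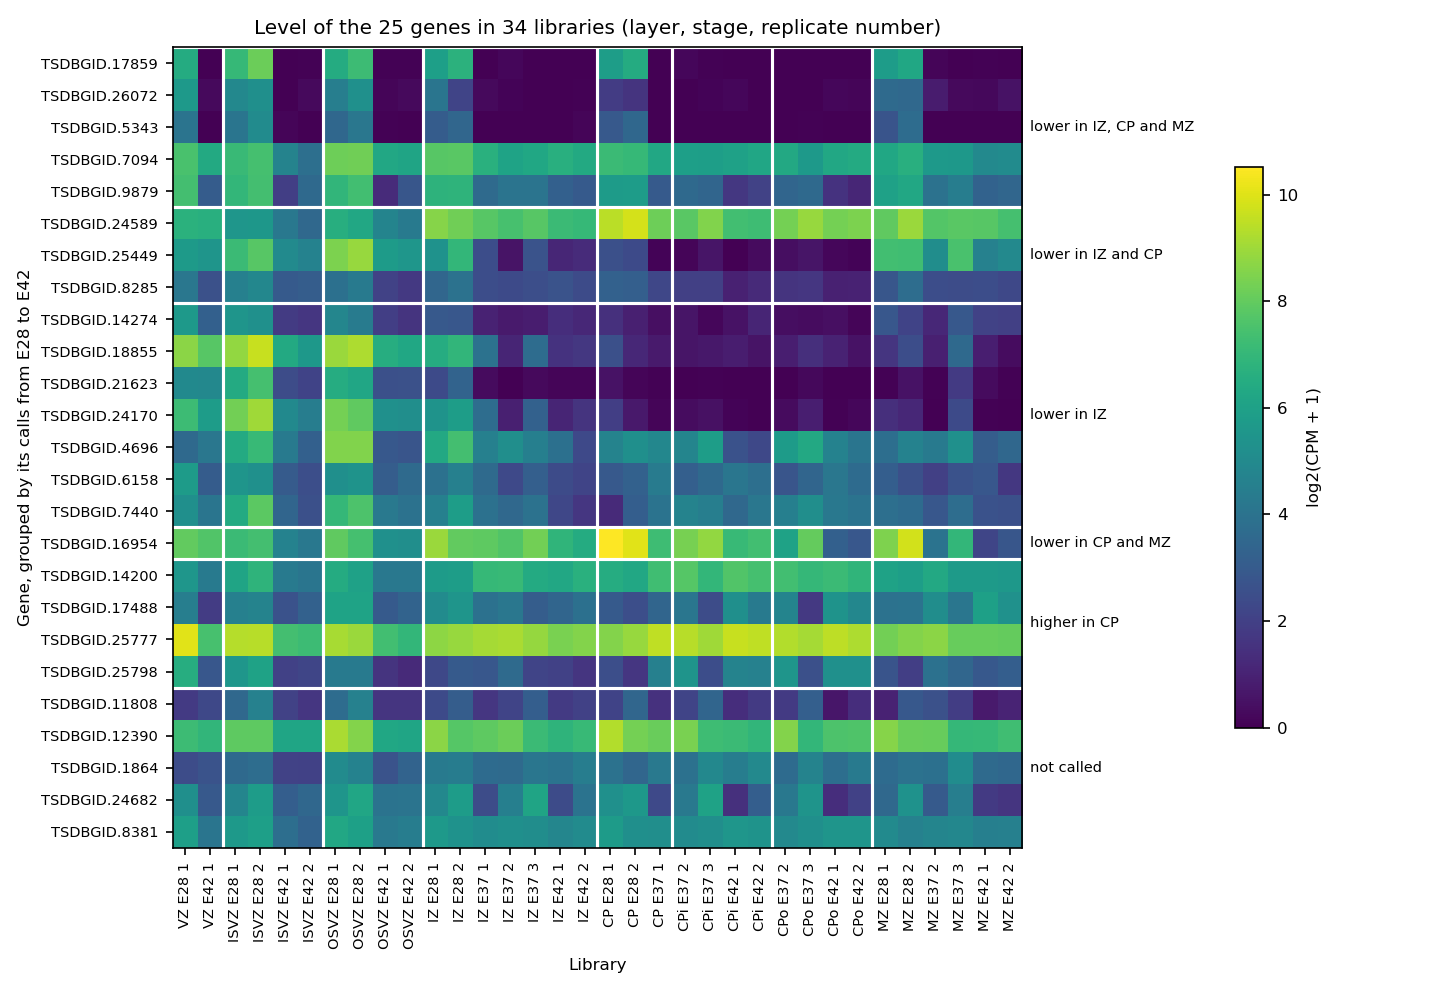
Level of each of the 25 genes (rows) in 34 libraries (columns, named by layer, stage and replicate number), as log2(CPM + 1), with the identical pair of VZ libraries left out. Rows are grouped by their calls from E28 to E42 in the IZ, CP and MZ. The top 3 rows show signal in the E28 libraries of every layer and are near 0 in all later ones, while in the 4 rows called higher in the CP the E42 CPi and CPo libraries are brighter than the CP of E28.

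The question was then whether genes reduced in the subventricular zones also changed in the layers that the choice did not use. The IZ adjoins the OSVZ, and the study filtered its IZ genes by OSVZ genes for that reason. How much OSVZ tissue the IZ libraries hold was not tested. All 25 genes passed the filter on low counts and entered a fit of 26794 features. From E28 to E42, 15 of the 25 genes were lower in the IZ (edgeR quasi-likelihood test, Benjamini-Hochberg adjusted p under 0.05), against 3.24% of all features tested and 10.4% of the 7231 TSDBGID features that had 10 CPM or more in every E28 ISVZ and OSVZ library. In the CP 9 genes were lower, against 2.74% and 7.12%. In the MZ 6 genes were lower, against 2.12% and 5.52%. The median log2 fold change of the 25 genes was -2.17 in the IZ, -1.55 in the CP and -1.09 in the MZ, where the medians over all features were 0.08, 0.13 and 0.11. These medians did not move when genes without a count at E42 were set to the bound that 3 counts allow. With the DESeq2 Wald test, the test the study used, 19 genes were lower in the IZ, 15 in the CP and 13 in the MZ. The shares above are from the edgeR fit. No DESeq2 share of all features is given, so these counts cannot be read as an excess over the background.

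Genes that rose were found in the CP, where 4 of the 25 were higher at E42, against 8.10% of all features and 11.7% of the features at 10 CPM or more, a share near the background. In the edgeR fit of all layers 0 genes were called higher in the IZ and 0 in the MZ. At an unadjusted p under 0.05 there was 1 in each, DESeq2 called 0 in the IZ and 1 in the MZ, and an edgeR fit of the MZ alone called 1 there. The background shares of higher calls in the edgeR fit of all layers were 6.21% and 6.85% in the IZ and 7.23% and 11.2% in the MZ. Without either of the 2 E28 CP libraries, the count of genes higher in the CP was 2.

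**Figure D2:**
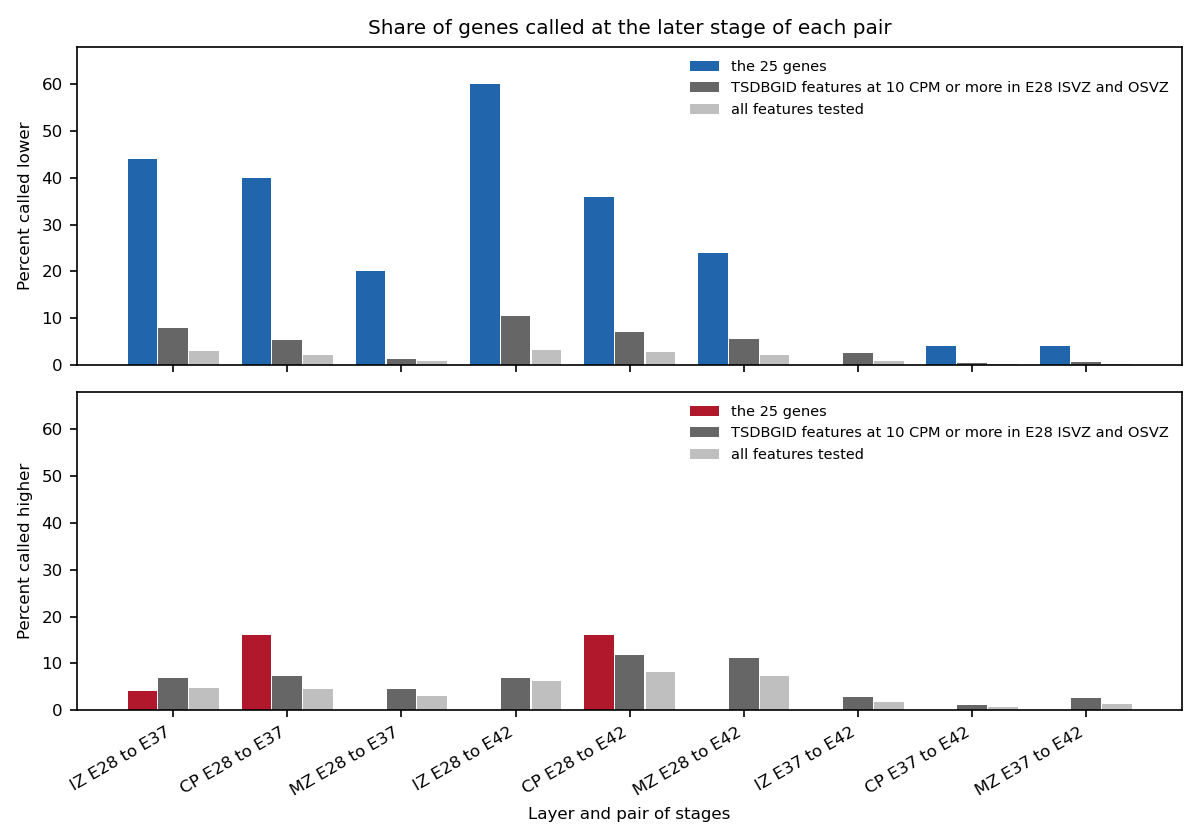
Percent of genes called lower (top) or higher (bottom) at the later stage of each pair, for the 25 genes and for 2 backgrounds, by layer and pair of stages on the horizontal axis. In the 6 comparisons that start at E28 the 25 genes were called lower more often than either background, with the tallest bar for the IZ at E42 (15 of 25 genes). The bars for higher calls are tallest in the CP against E28 (4 of 25 genes at E37 and at E42) and are at 0 in the MZ.

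Counted without a test, each E28 library of the IZ lay above each E42 library for 23 of the 25 genes, where 19.0% of all features and 36.9% of those at 10 CPM or more did so. In the CP this held for 17 genes (23.3% and 36.9%) and in the MZ for 20 (20.0% and 34.4%). The fold of 2.5 between every pair of libraries, which defined the genes in the subventricular zones, was met by 12 genes in the IZ, 11 in the CP and 9 in the MZ, against 2.11%, 3.10% and 2.5% of all features and 0.705%, 1.52% and 0.608% of those at 10 CPM or more. In the opposite direction it was met by 0 genes in the IZ, 2 in the CP and 1 in the MZ, against 10.8%, 11.9% and 10.7% of all features and 1.80%, 2.57% and 3.18% of those at 10 CPM or more.

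By their calls from E28 to E42 the genes fell into groups. In all 3 of the IZ, CP and MZ, 5 genes were lower. Another 3 were lower in the IZ and CP, 7 in the IZ alone, and 1 in the CP and MZ. The 4 genes higher in the CP were called in no other layer, and 5 genes were called in none. No background share is given for these joint calls, so the groups serve only to order the description. The naming rule, stated with the methods, gave 4 genes (TSDBGID.7094, TSDBGID.17859, TSDBGID.25777 and TSDBGID.14200), and every other identifier is named after its values were seen. A call in one layer and not in another does not show that the layers differ, and the differences themselves were tested as interactions.

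**Figure D3:**
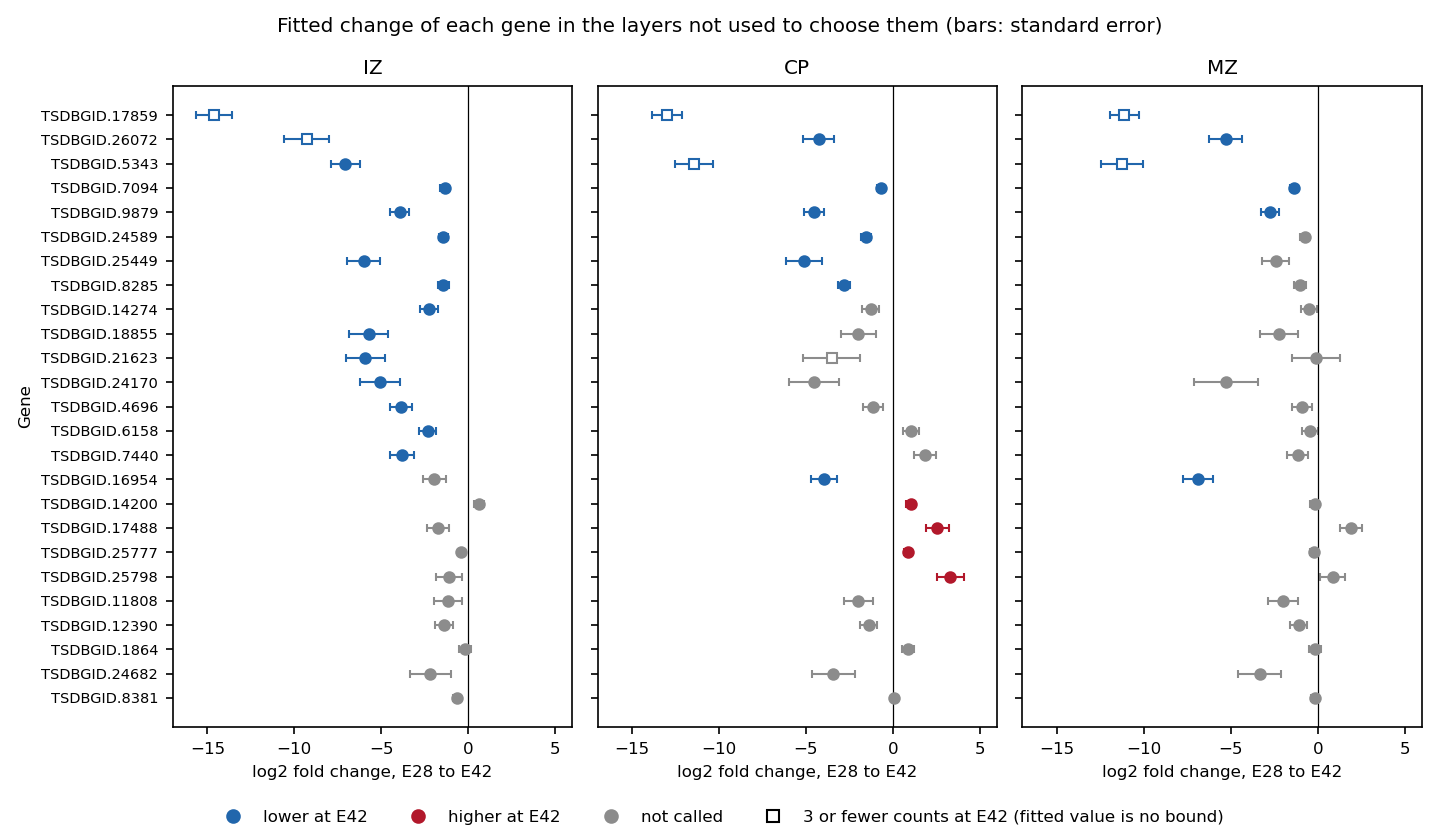
Fitted log2 fold change from E28 to E42 (horizontal axis) of each of the 25 genes in the IZ, CP and MZ, with its standard error. Blue marks genes called lower, red genes called higher and grey genes not called, and open squares mark groups with 3 or fewer counts at E42, whose fitted value is no bound. In the IZ panel every point but that of TSDBGID.14200 lies left of 0, while in the CP panel 8 of the 25 lie right of it.

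Of the 5 genes lower in all 3 layers, the 2 with the highest E28 level in the subventricular zones were TSDBGID.7094 and TSDBGID.17859, the pair that the naming rule gave. TSDBGID.7094 was reduced but still well detected at E42. In the IZ it had 217 and 226 CPM at E28, 102, 67.2 and 76.1 CPM at E37, and 99.6 and 82.9 CPM at E42. The E28 libraries of the IZ thus lay above all later ones, and those of E37 and E42 overlapped. The CP held 141 and 130 CPM at E28, 78.3, 70.0 and 53.3 CPM at E37, and 72.4 and 78.7 CPM at E42. The MZ held 76.3 and 98.7 CPM at E28, 50.4 and 47.6 CPM at E37, and 29.7 and 32.3 CPM at E42, with no overlap between stages. From E28 to E42 its level fell by 1.36 ± 0.23 (log2, SE) in the IZ (adjusted p = 0.000308), by 0.71 ± 0.23 in the CP (adjusted p = 0.0461) and by 1.36 ± 0.24 in the MZ (adjusted p = 0.00022). The call in the CP was lost without either E28 CP library and without either E42 CPi library, with log2 changes of -0.65 to -0.75. In the subventricular zones, where it was chosen, it went from 141 and 171 to 25.3 and 13.3 CPM in the ISVZ and from 295 and 305 to 77.8 and 69.2 CPM in the OSVZ.

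TSDBGID.17859 was present in every E28 library and close to 0 in every later one. In the IZ it had 59.7 and 109 CPM at E28, 0, 0.132 and 0 CPM at E37, and 0 CPM in both E42 libraries, so that its level was at least 2203-fold lower at E42 (3 counts over the group). In the CP it had 57.1 and 88.8 CPM at E28 and 1 count over both E42 libraries, a ratio of 14636 with an exact 95% interval of 2626 to 578225 that covers counting error only. In the MZ it had 55.4 and 76.1 CPM at E28 and 3 counts at E42, a ratio of 2629 (interval 899 to 12757). The fall was called in each of the 3 layers (largest adjusted p = 9.96e-08, in the IZ).

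Another 2 genes behaved in the same way over all layers. TSDBGID.26072 ranged from 2.00 to 50.1 CPM over the 11 E28 libraries and reached at most 0.725 CPM in the 23 later ones. TSDBGID.5343 ranged from 5.62 to 32.9 CPM at E28 and reached at most 0.118 CPM later, with 0 counts in 18 of the 23 libraries. With TSDBGID.17859 they made 3 of the 9 features in the whole annotation (0.0117%) that had 1 CPM or more in each E28 library and less in each later one. Over all libraries pooled, the E28 level was 4676 times the later level for TSDBGID.17859, 1027 times for TSDBGID.5343 and 169 times for TSDBGID.26072. These pooled levels, and the 3 of 9 features, include the ISVZ and OSVZ libraries that chose the genes. The low level was present by E37 in the layers measured then. Whether it goes with age or with the fetuses of E28 cannot be told apart. The VZ showed it as well, with 0, 6 and 0 counts of TSDBGID.17859, TSDBGID.26072 and TSDBGID.5343 in replicate 1 of E42, whereas the file labelled replicate 2 of E42, which is identical to that of E28, held 7247, 2273 and 1005 counts.

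**Figure D4:**
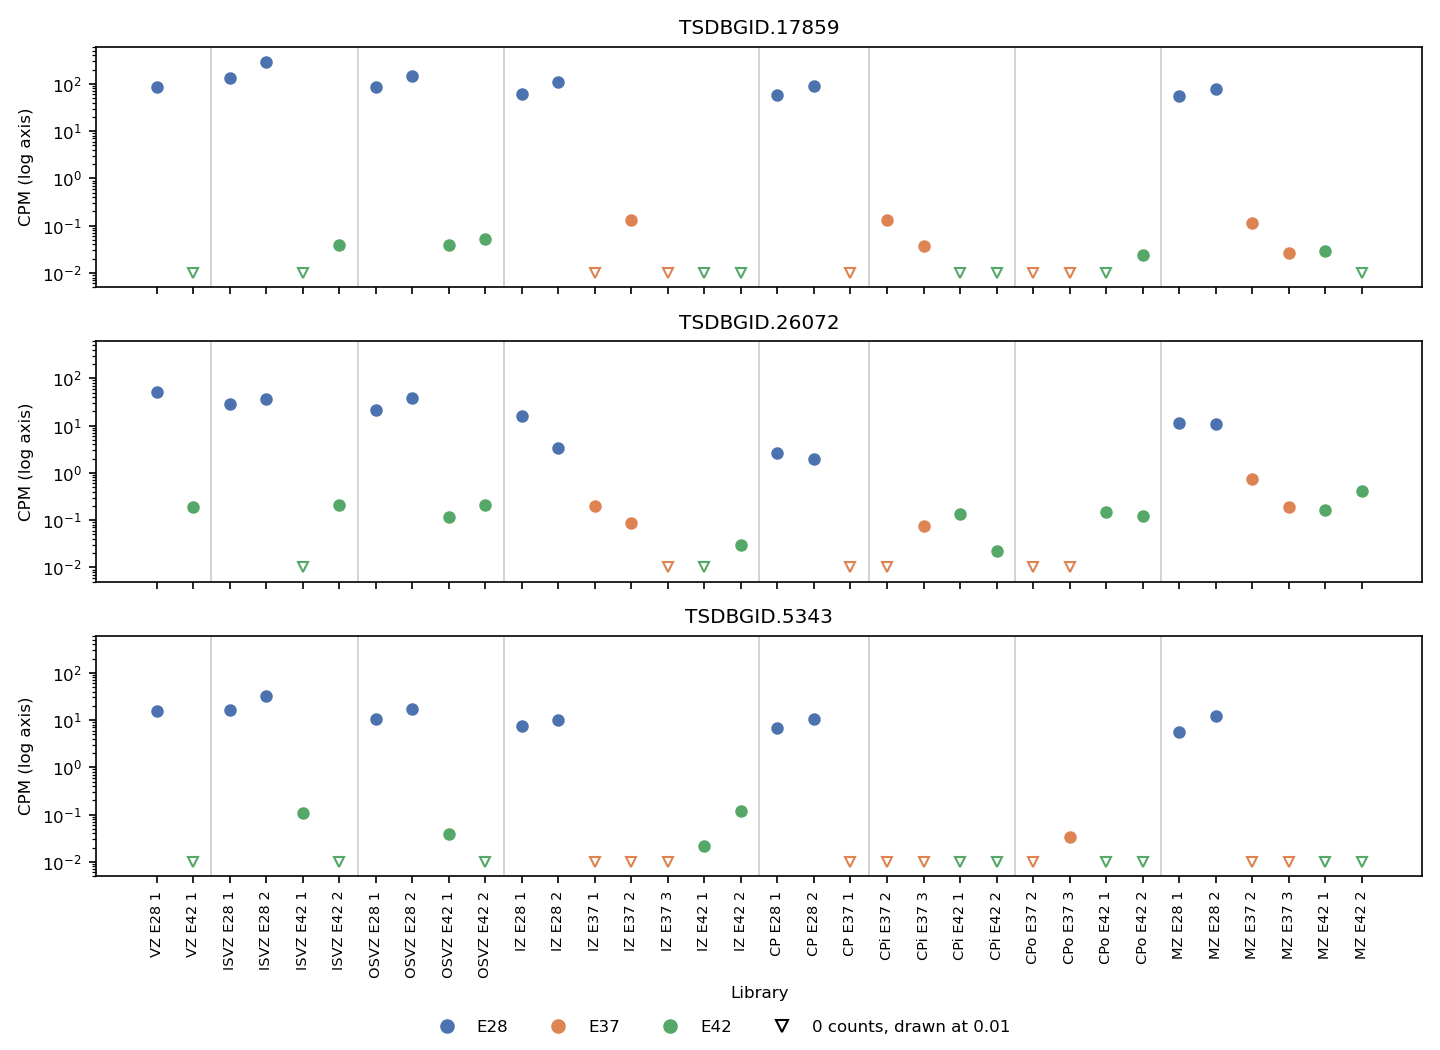
CPM on a log axis of TSDBGID.17859, TSDBGID.26072 and TSDBGID.5343 in 34 libraries, ordered by layer and coloured by stage, with open triangles for libraries without a count, drawn at 0.01. In each panel all 11 E28 points (2.00 CPM or more) lie above all 23 later points (0.725 CPM or less). The ISVZ and OSVZ points are the values that chose the genes.

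The 3 genes differed in how they were spread over the E28 layers. The ratio of TSDBGID.17859 to TSDBGID.5343 stayed between 5.69 and 10.7 over the 11 libraries, a span of 1.88 times. The ratio of TSDBGID.17859 to TSDBGID.26072 spanned 25.5 times, from 1.75 to 44.5. Both TSDBGID.17859 and TSDBGID.5343 were higher in replicate 2 than in replicate 1 in each of the 5 E28 layers with a usable pair, whereas TSDBGID.26072 was so in 2 of 5. TSDBGID.26072 was lowest in the CP, with 2.67 and 2.00 CPM, and highest in the VZ, with 50.1 CPM.

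The last gene of the 5, TSDBGID.9879, fell in steps. It went from 110 and 113 CPM in the IZ at E28 through 11.3, 15.6 and 15.4 CPM at E37 to 8.39 and 6.93 CPM at E42. The CP went from 54.3 and 55.5 CPM through 6.93, 10.5 and 10.4 CPM to 2.04 and 2.27 CPM, and in the MZ from 64.7 and 77.8 CPM through 14.5 and 21.1 CPM to 8.92 and 10.2 CPM. In all 3 layers the stages did not overlap. Its log2 fold change from E28 to E42 was -3.94 ± 0.54 (SE) in the IZ (adjusted p = 0.000143), -4.54 ± 0.56 in the CP (adjusted p = 2.79e-05) and -2.76 ± 0.52 in the MZ (adjusted p = 0.00168). The steps from E37 to E42 were not called (smallest adjusted p = 0.0504, in the CP).

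Of the genes lower in the IZ and CP, TSDBGID.25449 kept a second site of expression in the MZ. Its CP level was 4.96 and 4.17 CPM at E28 and 0.0857 and 0.151 CPM at E42, and in the IZ it fell from 40.6 and 123 CPM to 1.22 and 1.48 CPM. In the MZ it had 162 and 154 CPM at E28 and 23.9 and 29.5 CPM at E42, a log2 fold change of -2.42 ± 0.78 that was not called (adjusted p = 0.0668). TSDBGID.24589 had its highest E28 level in the CP, with 684 and 904 CPM against 44.9 and 46.4 CPM in the ISVZ, and was still at 251 and 245 CPM there at E42 (log2 fold change -1.55 ± 0.27, adjusted p = 0.000267). TSDBGID.8285 went from 8.49 and 8.21 CPM in the CP at E28 to 3.78, 2.52 and 2.56 CPM at E37 and to 0.952 and 1.21 CPM at E42. It was the only one of the 25 genes called between E37 and E42 in the CP (log2 fold change -1.43 ± 0.33, adjusted p = 0.0273), where 0.127% of all features and 0.373% of those at 10 CPM or more were lower. That count ranged from 0 without the E37 CP library of replicate 1 to 3 without the E42 CPo library of replicate 1.

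The 7 genes lower in the IZ alone included 3 that were low in the CP and MZ already at E28. TSDBGID.18855 had 455 and 798 CPM in the ISVZ and 494 and 597 CPM in the OSVZ at E28, 89.6 and 121 CPM in the IZ, and between 1.28 and 4.92 CPM in the CP and MZ. In the IZ it was at 1.90 and 2.27 CPM at E42 (log2 fold change -5.73 ± 1.10, adjusted p = 0.00331). TSDBGID.24170 followed the same order, with 41.9 and 57.6 CPM in the IZ at E28 and 1.13 and 1.98 CPM at E42. TSDBGID.21623 fell from 4.19 and 9.22 CPM in the IZ to 0.111 and 0.118 CPM, which is 9 counts over the E42 group. In the E28 libraries of the CP and MZ, TSDBGID.21623 was at 0.431 CPM or less.

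Libraries of E37 differed widely for these genes. TSDBGID.24170 in the IZ had 12.7, 0.924 and 8.75 CPM in replicates 1 to 3, and TSDBGID.18855 had 14.8, 1.14 and 12.0 CPM. In the MZ replicate 3 of E37 held 11.2 CPM of TSDBGID.18855, 4.08 CPM of TSDBGID.24170, 2.49 CPM of TSDBGID.21623 and 177 CPM of TSDBGID.25449, where replicate 2 held 0.892, 0, 0.0558 and 34.9 CPM. Replicate 3 exceeded both E28 libraries of the MZ for each of these 4 genes. The part of the dissection in these differences was not tested.

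Of the other 4 genes of this group, 2 had higher values in the CP at E42 than at E28. TSDBGID.7440 dropped in the IZ from 22.6 and 56.1 CPM at E28 to 3.72 and 2.21 CPM at E42 (log2 fold change -3.81 ± 0.68, adjusted p = 0.00165). Its CP level was 1.39 and 7.73 CPM at E28, 15.0, 23.7 and 29.1 CPM at E37, which was called higher (adjusted p = 0.025), and 14.5 and 16.0 CPM at E42, which was not (adjusted p = 0.0791). TSDBGID.6158 dropped in the IZ from 14.2 and 23.2 CPM to 4.36 and 3.51 CPM (log2 fold change -2.32 ± 0.49, adjusted p = 0.00291) and had 6.73 and 8.57 CPM at E28 and 16.7 and 12.5 CPM at E42 in the CP (adjusted p = 0.177). TSDBGID.4696 dropped in the IZ from 80.1 and 163 CPM to 13.9 and 3.95 CPM (log2 fold change -3.86 ± 0.64, adjusted p = 0.000894). TSDBGID.14274 dropped there from 6.74 and 6.17 CPM to 1.62 and 1.24 CPM. In the CP it had 1.76 and 0.921 CPM at E28 and 0.371 and 0.616 CPM at E42, and only the change to E37 was called (adjusted p = 0.0147).

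TSDBGID.16954 was the gene lower in the CP and MZ without a call in the IZ. It was the most abundant of the 25 in the CP at E28, with 1466 and 1064 CPM, against 142 and 163 CPM in the ISVZ. The CP held 152, 211 and 353 CPM at E37 and 62.6 and 85.5 CPM at E42 (log2 fold change from E28 -3.96 ± 0.74, adjusted p = 0.00194). The MZ level fell from 357 and 879 CPM through 15.0 and 126 CPM to 3.65 and 5.99 CPM (log2 fold change -6.89 ± 0.86, adjusted p = 5.76e-05). The step from E37 to E42 in the MZ was also called (log2 fold change -3.88 ± 0.75, adjusted p = 0.0139), the only one of the 25, where 0.228% of all features and 0.595% of those at 10 CPM or more were lower. That call was lost without the E37 MZ library of replicate 3 and without either E42 MZ library, when 0 genes were called, and without the E37 MZ library of replicate 2 the count was 4. In the IZ it had 496 and 252 CPM at E28 and 118 and 88.0 CPM at E42 (adjusted p = 0.0952). Within the E42 plate its 2 parts stood apart, with 136 and 160 CPM in the CPi and 8.39 and 6.32 CPM in the CPo.

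**Figure D5:**
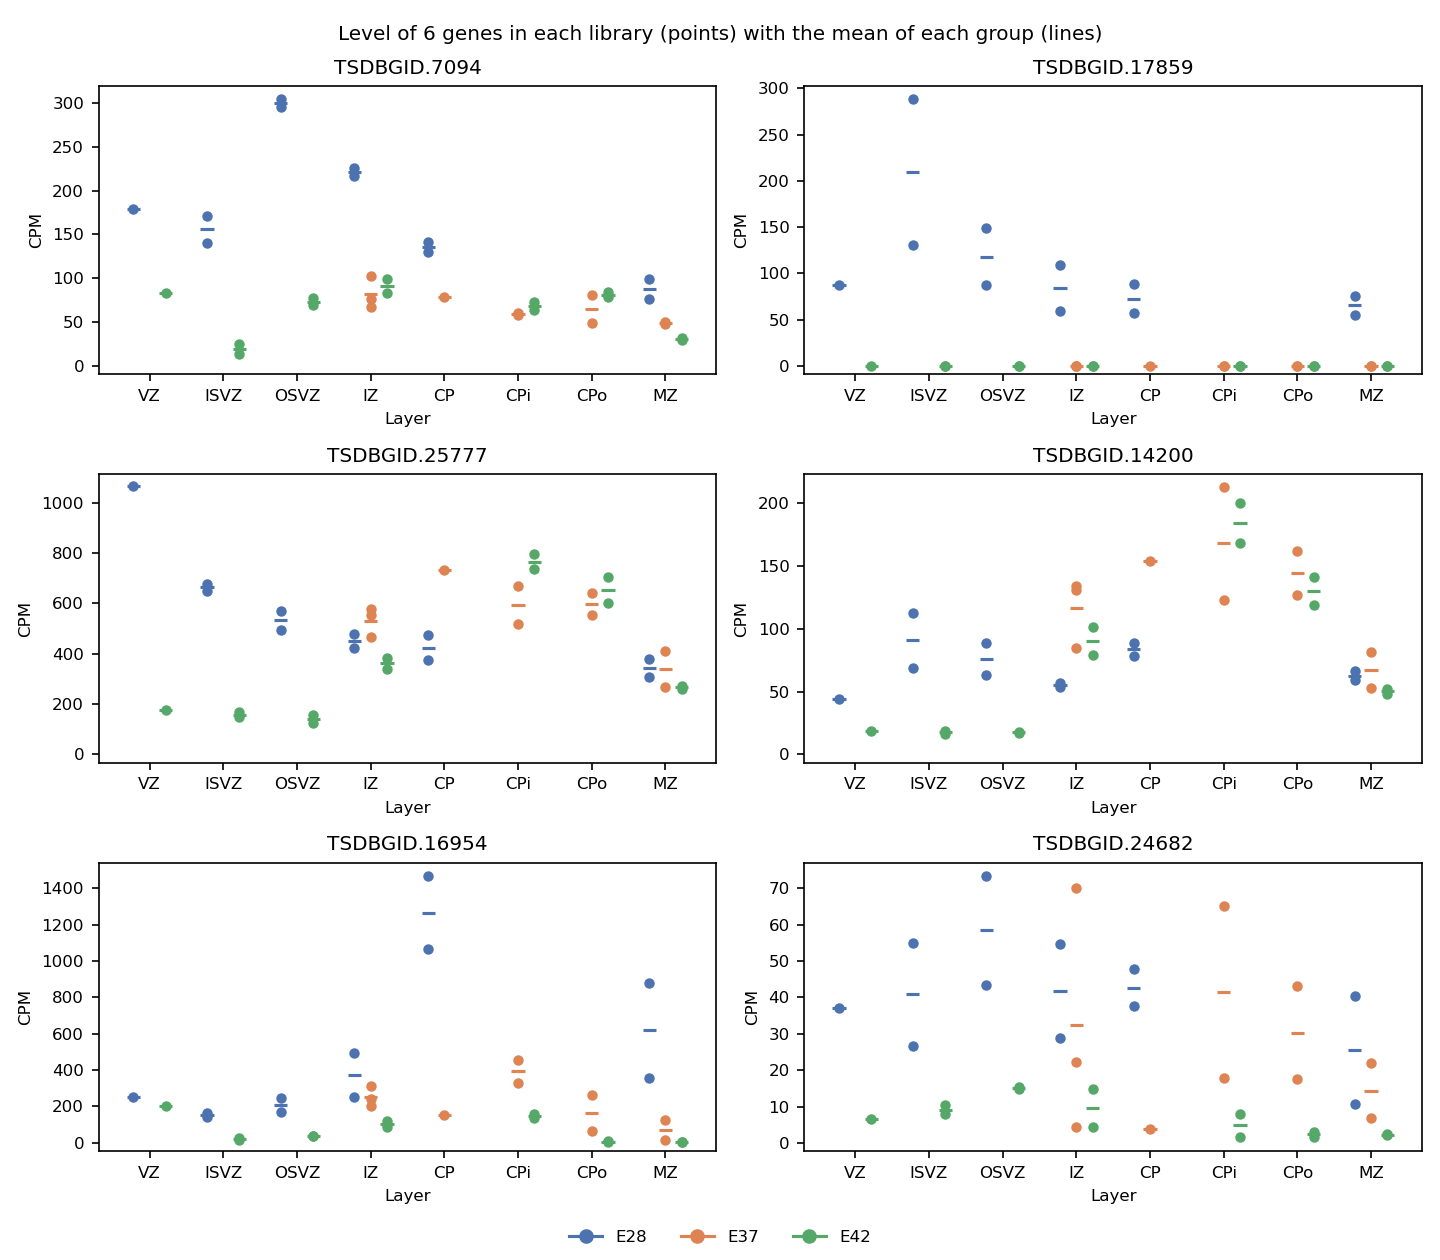
CPM of the 4 genes that the naming rule gave (top and middle rows) and of TSDBGID.16954 and TSDBGID.24682 (bottom row) in each library, by layer on the horizontal axis and coloured by stage, with lines at group means. TSDBGID.25777 and TSDBGID.14200 are lower at E42 in the VZ, ISVZ and OSVZ and higher in the CPi and CPo than in the CP of E28. TSDBGID.16954 at E42 lies between 136 and 160 CPM in the CPi and under 10 CPM in the CPo.

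The 4 genes that rose in the CP while their subventricular level dropped were TSDBGID.25777 and TSDBGID.14200, which the naming rule gave, and TSDBGID.17488 and TSDBGID.25798. TSDBGID.25777 had the highest mean of the 25 over the 4 subventricular libraries of E28, with 649 and 678 CPM in the ISVZ and 571 and 493 CPM in the OSVZ, and it was at 167 and 149 CPM and at 159 and 123 CPM there at E42. Its CP level was 374 and 474 CPM at E28, 731, 656 and 536 CPM at E37, and 743 and 670 CPM at E42, so that all later libraries lay above both early ones. Its log2 fold change in the CP was 0.87 ± 0.22 (adjusted p = 0.00741). In the IZ it had 423 and 477 CPM at E28 and 340 and 384 CPM at E42, and in the MZ 309 and 381 CPM and 270 and 262 CPM, neither of which was called (log2 fold changes -0.38 ± 0.22 and -0.24 ± 0.21). Its order of layers turned round, from 1065 CPM in the VZ and 424 ± 70.6 CPM (SD, n = 2) in the CP at E28 to 177 CPM in the VZ and 706 ± 51.7 CPM (SD, n = 2) in the CP at E42. The call in the CP was lost without the E28 CP library of replicate 1, at a log2 change of 0.71.

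TSDBGID.14200 had 68.7 and 113 CPM in the ISVZ at E28 and 19.1 and 15.9 CPM at E42. Its CP level was 89.1 and 78.2 CPM at E28, 154, 190 and 125 CPM at E37, and 166 and 144 CPM at E42 (log2 fold change from E28 to E42 1.03 ± 0.27, adjusted p = 0.0112). It was also the only gene of the 25 called higher in the IZ at E37, with 131, 134 and 84.6 CPM against 53.5 and 56.8 CPM at E28 (log2 fold change 1.12 ± 0.25, adjusted p = 0.00564), where 4.75% of all features and 6.86% of those at 10 CPM or more were higher. Without either E28 IZ library that count was 0. At E42 its IZ level of 79.1 and 101 CPM was not called against E28 (adjusted p = 0.151). The call in the CP at E42 was lost without the E28 CP library of replicate 2, at a log2 change of 0.95.

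TSDBGID.17488 and TSDBGID.25798 were low in the CP at E28. TSDBGID.17488 had 6.89 and 4.76 CPM in the CP at E28, 9.73, 20.9 and 3.29 CPM at E37, and 39.2 and 23.3 CPM at E42 (log2 fold change 2.56 ± 0.65, adjusted p = 0.0145). In the MZ it had 14.5 and 14.9 CPM at E28 and 62.8 and 38.9 CPM at E42, which was not called (adjusted p = 0.0683). TSDBGID.25798 had 4.84 and 2.18 CPM in the CP at E28, 22.6, 43.4 and 4.74 CPM at E37, and 32.2 and 30.5 CPM at E42 (log2 fold change 3.31 ± 0.77, adjusted p = 0.00859). In the E28 germinal zones TSDBGID.25798 decreased outward, from 92.2 CPM in the VZ through 45.2 and 64.9 CPM in the ISVZ to 19.1 and 18.9 CPM in the OSVZ.

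The 5 genes without a call were not alike. TSDBGID.8381 had 51.3 and 40.6 CPM in the IZ at E28 and 27.7 and 33.1 CPM at E42, which did not overlap, and its log2 fold changes were -0.66 ± 0.22 in the IZ (adjusted p = 0.0538), 0.09 ± 0.22 in the CP and -0.19 ± 0.22 in the MZ. TSDBGID.1864 had 11.2 and 12.4 CPM in the ISVZ and 32.5 and 24.6 CPM in the OSVZ at E28, and its IZ level was 18.7 and 20.4 CPM at E28 and 14.9 and 21.1 CPM at E42, which overlap. TSDBGID.12390 had 412 and 212 CPM in the IZ, 640 and 318 CPM in the CP and 394 and 273 CPM in the MZ at E28, and 114 and 136, 172 and 158, and 131 and 154 CPM at E42. Its E28 libraries lay above those of E42 in each layer, with adjusted p between 0.0882 and 0.201. TSDBGID.11808 had 10 CPM or less in every IZ, CP and MZ library. Its log2 fold changes were -1.17 ± 0.82, -1.99 ± 0.83 and -1.99 ± 0.88 in these layers (adjusted p between 0.156 and 0.457).

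TSDBGID.24682, the last gene without a call, had large fitted falls from E28 to E42. They were -2.17 ± 1.17 in the IZ, -3.43 ± 1.23 in the CP and -3.35 ± 1.25 in the MZ (log2, SE, adjusted p between 0.0976 and 0.312). In each of these layers both E42 libraries lay below both E28 libraries. TSDBGID.24682 also kept one order of replicate numbers over several layers. At E37 it had 4.41, 22.4 and 70.2 CPM in replicates 1 to 3 of the IZ, 3.94, 17.7 and 53.4 CPM in those of the CP, and 6.80 and 21.9 CPM in replicates 2 and 3 of the MZ. At E28 replicate 2 exceeded replicate 1 in all 5 layers, for example 54.6 against 28.8 CPM in the IZ. In total 6 of the 25 genes were higher in replicate 2 in all 5 E28 layers and 1 was higher in replicate 1 in all 5. Of all features 10.8% and 8.15% were so ordered, and of those at 10 CPM or more 17.3% and 16.3%. What the replicate number marks is not given in the labels.

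Most genes called at E42 were also called at E37, the earliest later stage measured, though the median change was smaller at E37. From E28 to E37, 11 genes were lower in the IZ (2.98% of all features and 7.95% of those at 10 CPM or more), 10 in the CP (2.21% and 5.31%) and 5 in the MZ (0.967% and 1.31%). The median log2 fold change of the 25 genes was -1.41, -0.89 and -0.27 in these layers, against -2.17, -1.55 and -1.09 from E28 to E42. Of the genes lower at E42, 11 of 15 in the IZ, 9 of 9 in the CP and 5 of 6 in the MZ were already lower at E37. In the CP 4 genes were higher at E37 (4.59% and 7.32%), among them 3 of the 4 higher at E42. In the MZ 0 genes were higher at E37 with edgeR (background 2.96% and 4.58%) and 0 with DESeq2, and 3 at an unadjusted p under 0.05. Both sets of calls share the E28 libraries, so they are not independent and some overlap is built in. No share of all features called at both stages is given beside these overlaps. Without the E28 CP library of replicate 1 the CP counts at E37 were 6 lower and 0 higher, and without that of replicate 2 the higher count was 2. In the MZ the count at E37 was 3 without the E28 library of replicate 2 or without either E37 library, and 2 genes were called higher without the E37 library of replicate 2.

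From E37 to E42 few genes were called. In the IZ 0 of 25 were lower with edgeR, where 0.761% of all features and 2.52% of those at 10 CPM or more were. At an unadjusted p under 0.05 there were 10, all of them lower, and DESeq2 called 3. An edgeR fit of the IZ alone called 5, and the fit of all layers without the filter on low counts called 3. In the CP 1 gene was lower and in the MZ 1 (TSDBGID.8285 and TSDBGID.16954, above), with 5 and 10 at an unadjusted p under 0.05 and 4 and 5 with DESeq2. Called higher were 0 genes in each of the 3 layers with edgeR and with DESeq2, and at an unadjusted p under 0.05 there were 0 in the IZ and MZ and 1 in the CP. The background shares of higher calls in the edgeR fit of all layers were 1.83% and 2.78% in the IZ, 0.690% and 1.09% in the CP, and 1.28% and 2.53% in the MZ.

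Whether the change from E28 to E42 differed between layers was tested as an interaction. Between the IZ and CP it differed for 4 genes, each with the more negative change in the IZ, against 0.571% of all features and 1.60% of those at 10 CPM or more. These were TSDBGID.7440, with a difference of -5.65 ± 0.93 (log2, SE, adjusted p = 0.00551), TSDBGID.17488, with -4.31 ± 0.90 (adjusted p = 0.0275), TSDBGID.6158, with -3.39 ± 0.67 (adjusted p = 0.0111), and TSDBGID.25777, with -1.25 ± 0.30 (adjusted p = 0.0406). Between the IZ and MZ it differed for 2 genes (1.81% and 3.79%). TSDBGID.17488 had the more negative change in the IZ (-3.67 ± 0.89, adjusted p = 0.0423), and TSDBGID.16954 in the MZ (4.95 ± 1.00, adjusted p = 0.0149). Between the CP and MZ 0 genes differed with edgeR (1.46% and 2.84%), while 11 had an unadjusted p under 0.05 and DESeq2 called 4.

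These interaction counts rested on few libraries. With the replicate number of each stage as a block, which the shared deviations of same-numbered layers allow, 5 genes differed between the IZ and CP, 6 between the IZ and MZ and 5 between the CP and MZ. With the block, TSDBGID.21623, TSDBGID.25449, TSDBGID.4696 and TSDBGID.6158 joined the genes with a more negative change in the IZ than in the MZ. Between the CP and MZ, TSDBGID.8285 had the more negative change in the CP, and TSDBGID.14200, TSDBGID.25777, TSDBGID.6158 and TSDBGID.7440 in the MZ. No background share is given for the fit with the block. Without single libraries, the IZ and CP count was 0 without the E42 IZ library of replicate 2, and 1 without the E28 IZ library of replicate 2, the E42 IZ library of replicate 1 or the E28 CP library of replicate 1. The IZ and MZ count was 0 without the E28 IZ library of replicate 2 or either E42 MZ library, and 1 without any other IZ or MZ library of these stages. The CP and MZ count was 1 without the E28 CP library of replicate 2 or the E42 CPi library of replicate 2, and 2 without the E28 MZ library of replicate 2.

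In the VZ, with 1 library at each stage and no test, 22 of the 25 genes had a lower level at E42, where 35.8% of all features and 57.0% of those at 10 CPM or more did. The fold of 2.5 was met by 13 genes, against 11.0% of all features and 5.77% of those at 10 CPM or more. Some genes that dropped in the subventricular zones were near level in the VZ. TSDBGID.21623 had 30.5 and 29.2 CPM at E28 and E42, TSDBGID.24589 had 104 and 98.5 CPM, and TSDBGID.16954 had 255 and 200 CPM.

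The CP could be split into its inner and outer part at E37 and E42. At E42 each CPi library lay above each CPo library for 6 of the 25 genes and below it for 5, against 20.8% and 21.1% of all features, so the 25 genes did not lean to either part. At E37 the counts were 3 and 1, against 14.2% and 9.50%. The gene with CPi above CPo at both stages was TSDBGID.16954, with 332 and 455 CPM against 65.3 and 262 CPM at E37. TSDBGID.4696 had 5.25 and 3.87 CPM in the CPi and 24.2 and 15.8 CPM in the CPo at E42, and TSDBGID.24589 had 161 and 152 CPM against 318 and 343 CPM. At E37 the CPi and CPo values of these 2 genes overlapped.

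The same rule was met by 3 of the 55828 features with other identifiers, which are LINC and antisense names (0.00537%), against 0.119% of the TSDBGID features. With E28 and E42 exchanged, 162 TSDBGID features met it. The summed level of the 25 genes was 3025 to 4351 CPM in the E28 ISVZ and OSVZ libraries and 452 to 671 CPM in those of E42. In the other E28 libraries it was 1871 to 3694 CPM, and in those of E42 it was 820 to 1668 CPM.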

How the data were processed

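Laser-dissected cortical layers gave 36 RNA-seq libraries. Per the study's methods, the authors trimmed adapters, aligned reads with HISAT to the TS_3.0 genome, and deposited integer read counts per feature from HTSeq-count, not normalized. The labels' processing notes also name SAMtools. Lines that name no feature were left out of library sizes and tests.

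Levels are CPM. The 25 genes and the gene groups were chosen with earlier results of these data known. Counts were tested with edgeR 4.0.16 in R 4.3.3 (TMM normalization, filterByExpr with a minimum count of 10, robust quasi-likelihood test, Benjamini-Hochberg adjustment over 26794 features, threshold 0.05) in 1 fit of 30 libraries in 15 groups, with 15 residual degrees of freedom (common BCV, the square root of the dispersion, 0.384). The fit left out both identical VZ files and summed CPi and CPo of one stage and number. The scripts were tested on simulated data first. A change between layers is a difference of 2 changes, always from E28 to E42. Each standard error (SE) was back-calculated, as the absolute log2 fold change over the square root of the F statistic of its test. A fold against a group without counts was computed against 3 counts over the group, and intervals are exact binomial ones at 95%, for counting error only.

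By rule, 2 genes were named from those lower in the IZ, CP and MZ and 2 from those higher in any of these layers, by their mean CPM in the E28 ISVZ and OSVZ. That rule limited the identifiers printed to 4, and the report departs from it so that every member is accounted for. No identifier matched the RefSeq table, so no gene function, marker check or sequence is given, and that TSDBGID features are coding genes was not checked.

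Replicate numbers come from the labels, which do not say what a number marks. Within a stage, deviations from group means of same-numbered IZ, CP and MZ libraries correlated at 0.116 to 0.243 in 19 pairs. In a group of 2 libraries these deviations mirror each other, so some pairs repeat the same value and are not independent. The number of each stage served as a block for changes compared between layers. DESeq2 1.42.0, other normalizations, filters, groupings and left-out libraries were tried as alternatives. Background shares of calls are from the main edgeR fit only. Calls under alternatives or at an unadjusted p have no share beside them.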

Additional observations from a re-analysis of the deposited data

Results flagged for a closer look

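For 5 genes the change from E28 to E42 differed between layers by a test of the difference itself (edgeR quasi-likelihood interaction, adjusted p under 0.05), with 2 libraries per layer and stage. Taken as the change in the IZ minus that in the CP, on the log2 scale, it was -5.65 for TSDBGID.7440, -4.31 for TSDBGID.17488, -3.39 for TSDBGID.6158 and -1.25 for TSDBGID.25777. In the IZ both E42 libraries of TSDBGID.17488 were below both of E28, and in the CP both were above.

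Taken as the change in the IZ minus that in the MZ, it was -3.67 for TSDBGID.17488 and 4.95 for TSDBGID.16954. Leaving out single libraries took the first count from 4 to between 0 and 4 and the second from 2 to between 0 and 1.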

How the results depend on the processing

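Of 152 counts recomputed under settings other than leaving out a library, 112 stayed within 1.5 times and 40 moved. Of 140 fold changes of the 4 genes named by rule, 0 reversed, 9 lost the call and 1 gained it. With both identical VZ files kept, the CP calls of TSDBGID.7094, TSDBGID.25777 and TSDBGID.14200 were lost. The cause of these shifts was not tested.

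From E28 to E42, DESeq2 called 15 genes lower in the CP, 13 lower in the MZ and 1 higher in the MZ, and separate CPi and CPo groups gave 15 lower in the CP. Genes higher in the CP numbered 2 with the identical VZ files kept or with only the compared layers fitted, which also called 1 higher in the MZ. From E28 to E37, both of these settings left 1 gene higher in the CP, and the kept VZ files left 2 lower in the MZ.

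From E37 to E42, genes lower in the IZ numbered 3 with no filter or with DESeq2 and 5 with only that layer fitted. In the CP they numbered 4 with DESeq2, 2 with its size factors, 0 with the VZ files kept and 5 with separate CPi and CPo. In the MZ they numbered 2 with no filter, 5 with DESeq2 and 0 with only that layer fitted.

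For changes that differ between layers, IZ against CP gave 7 genes with DESeq2, 1 with the VZ files kept and 2 with only these layers fitted. IZ against MZ gave 5 with DESeq2 and 1 with the VZ files kept or with separate CPi and CPo. CP against MZ gave 2 with no filter, 4 with DESeq2, 2 with separate CPi and CPo and 1 with only these layers fitted.

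Across stages, same-numbered libraries correlated at -0.107 to 0.0508 in 16 pairs, some of which repeat the same value, so stages share only a number. With the replicate block, genes lower at E42 than at E37 numbered 4 in the IZ, 2 in the CP and 2 in the MZ, 1 gene was higher at E42 than at E28 in the IZ and 1 in the MZ, and 2 were higher at E37 in the MZ. Between layers the block gave 6 genes for IZ against MZ and 5 for CP against MZ.

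The rule itself gave 49 genes at a fold of 2 and 38 with TMM-scaled libraries, and 27 to 34 when any 1 of its 8 libraries was left out. Without single libraries, where a lone sample is assumed to vary like the other groups, genes lower at E42 than at E28 numbered 11 to 15 in the IZ, 8 to 11 in the CP and 6 to 9 in the MZ, and those higher in the CP 2 to 4. From E28 to E37, 8 to 11 were lower and 0 to 1 higher in the IZ, 6 to 10 lower and 0 to 4 higher in the CP, and 3 to 6 lower and 0 to 2 higher in the MZ. From E37 to E42, 0 to 3 were lower in the CP and 0 to 4 in the MZ. Differences between layers numbered 0 to 4 for IZ against CP, 0 to 1 for IZ against MZ and 0 to 2 for CP against MZ. Depth was high for most genes. Low counts, down to 0, limit TSDBGID.17859, TSDBGID.26072 and TSDBGID.5343 after E28. At E42 they also limit TSDBGID.21623, TSDBGID.24170 and TSDBGID.25449 in the CP (3, 12 and 22 counts over the group). In the IZ they limit TSDBGID.21623 (9 counts over the group), whose fall there was called. The same holds for TSDBGID.24170 in the MZ (4 counts over the group).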
